A study of Drosophila melanogaster with 11 samples.

Results

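The contacts of the Y chromosome were followed in MicroC libraries of *Drosophila melanogaster* embryos, in which chromatin is crosslinked, cut to nucleosomes with MNase and ligated, so that each sequenced pair of ends records 2 pieces of DNA that lay close together. The authors counted the pairs of each library by the chromosomes of their ends. Of the 36 pairs of sequences that these counts distinguish, the 7 with an end on Y are described here: Y with itself, with X, with each of the autosomal arms 2L, 2R, 3L and 3R, and with the mitochondrial genome (M). The pair of Y with chromosome 4 was not analysed here and is left out of every total. The embryos were 12–16 hr old (stage 14 in the sample labels) and came from lines in which the *nhomie* boundary of *eve*, on arm 2R, had been exchanged for *nhomie reverse* (3 libraries), *λ DNA* (3 libraries), *homie forward* (3 libraries) or, as the control, *nhomie forward* (2 libraries), which restores the native orientation. All 4 genotypes, the control included, carry the exchange sites that flank the replaced segment, and each library was made from many pooled embryos of a population cage. The sex of the embryos is not given in the sources used here.

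In flies the Y chromosome is found in males only. It is almost wholly heterochromatic, is built mostly of repeats, and carries a few genes known for their roles in male fertility, while the X that accompanies it is largely euchromatic. X and Y both carry arrays of ribosomal RNA genes, at which they pair in male meiosis. In somatic nuclei the heterochromatin around the centromeres of the different chromosomes tends to cluster.

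The Y of the reference genome was 3667352 bp long in all libraries. RefSeq, on the Release 6 assembly, places 123 genes on it, of which 24 are protein-coding, 36 are long noncoding RNAs and 63 are pseudogenes. This is 6.54 protein-coding genes per Mb, against 59.3 on chromosome 4 and 93.3 to 113 on X, 2L, 2R, 3L and 3R. Among them is *kl-3*, which encodes a dynein heavy chain of the sperm tail and spans chrY:336381-563165, a length of 226785 bp. Others are *kl-5* at chrY:22250-137486 and *kl-2* at chrY:573088-664173, which encode further dynein heavy chains. The counts add up all positions of Y, so contacts of single genes were not resolved.

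The libraries held 87012109 to 472473246 unique contacts, of which 94979 to 475865 had an end on Y. Tested over the 7 pairs together, replicates 2 and 3 of *nhomie reverse*, *λ DNA* and *homie forward* did not differ detectably beyond the sampling noise. The chi-square per degree of freedom was 1.62, 0.782 and 0.795 for these genotypes (chi-square tests of counts, p = 0.137, 0.584 and 0.574). While *nhomie reverse* lay somewhat above the value of sampling noise alone, all 3 pairs were far closer than any other pair of replicates. They were therefore counted as 1 sample in each mean ± SD, which leaves n = 2 for every genotype and 8 samples in all. Replicate 1 stood apart: against replicate 2 the chi-square per degree of freedom was 842, 160 and 103, with the genotypes in the same order. The *nhomie forward* libraries, the deepest, differed from each other by 10.1 per degree of freedom and were kept as 2 samples, a choice that rests in part on their depth. The study's methods describe the replicates of a genotype as independent biological replicates, so the 11 libraries were tested as well as the 8 samples. Replicate 1 of *nhomie reverse* had the largest share of cis pairs under 1 kb among its unique contacts, 61.5%, against 32.2% to 59.1% in the other libraries. Replicate 1 of *homie forward* and of *λ DNA* came next, at 59.1% and 52.7%, while in *nhomie forward* replicates 1 and 2 had 33.3% and 32.2%. Such short pairs include fragments that were never ligated. They count as cis in the shares below, where their part was not tested.

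Contact ends on Y were sparse for its length, and far sparser in cis than in trans. Cis contacts here have both ends on 1 chromosome or arm, and trans contacts join different ones. Per kb, Y had 38.0 to 180 contact ends in single libraries, against 1348 to 7366 on the mean of 2L, 2R, 3L and 3R, which is 2.41% to 3.59% of the autosomal density. For cis contacts alone the density on Y was 1.26% to 2.20% of that on the autosomal arms, whereas for trans contacts it was 11.5% to 13.5%. X, which is present in females as well as in males, reached 77.0% to 82.2% of the autosomal density in cis and 82.5% to 87.4% in trans. In pooled embryos X and Y differ in copy number, so X is not a matched control for the density of Y. The plot of contact density shows the gap between cis and trans, which is present on Y in every library and is small on X. The authors removed pairs of mapping quality under 3, so repeats of Y enter these densities only as far as reads could be placed in them. That threshold is low, and ends in repeats that chromosomes share may have been placed wrongly. A single misplaced end turns a cis contact into a trans contact. The part of such ends in the densities, cis shares and partner ratios of Y was not tested. Because embryos were pooled, a smaller share of males and fewer Y contacts per male nucleus cannot be told apart.

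**Figure D1:**
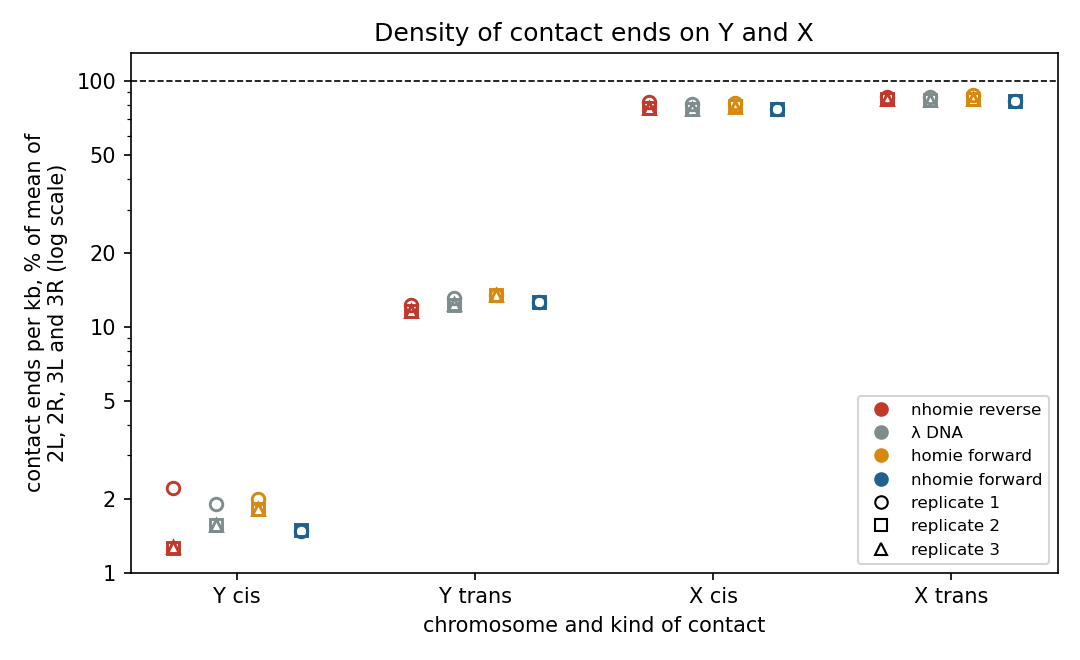
Contact ends per kb on Y and X, in cis and in trans, as a percent of the mean of 2L, 2R, 3L and 3R (log scale), with a symbol for each of the 11 libraries, colored by genotype. Y lies between 1.26% and 2.20% in cis and between 11.5% and 13.5% in trans, while X lies between 77.0% and 87.4%.

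Most of the contacts with an end on Y left Y. Of all contacts of Y, 36.1%, 27.2% and 27.6% were cis in replicates 1, 2 and 3 of *nhomie reverse*. In *λ DNA* the same shares were 40.2%, 34.9% and 34.9%. In *homie forward* they were 42.3%, 46.7% and 46.8%, and in *nhomie forward* 39.2% and 38.5%. The libraries of *homie forward* were thus the highest and replicates 2 and 3 of *nhomie reverse* the lowest, while replicate 1 of *λ DNA* lay above both *nhomie forward* libraries and its replicates 2 and 3 below them. Counting error alone, as a 95% Wilson interval, reached no more than ±0.317 percentage points in any library, and the libraries therefore differed by far more than counting noise. No such interval here covers more than counting error.

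The large arms kept most of their contacts to themselves. On average over X, 2L, 2R, 3L and 3R, 75.7% to 86.6% of the contacts with an end on an arm were cis, and on chromosome 4, the small and partly heterochromatic autosome, 63.1% to 78.5%. Within a library the Y cis share differed from the mean of the arms by -43.5 ± 3.59 percentage points (SD, n = 8), and it was lower in all 8 samples. The mean difference was distinct from 0 (two-sided exact sign-flip permutation test over the 11 libraries, p = 0.000977, the smallest possible, and p = 0.00781 over 8 samples, also the smallest possible). Both p-values follow from the shared sign and do not measure the size of the difference. Set against chromosome 4, a comparison chosen after the data were seen, the Y cis share differed by -30.8 ± 2.93 percentage points (SD, n = 8) and was lower in all 8 samples (exact sign-flip permutation test, p = 0.00781). The ratio of cis to trans contacts of Y was 0.374 to 0.879, and that of the arms was 5.54 to 9.07 times as high.

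**Figure D2:**
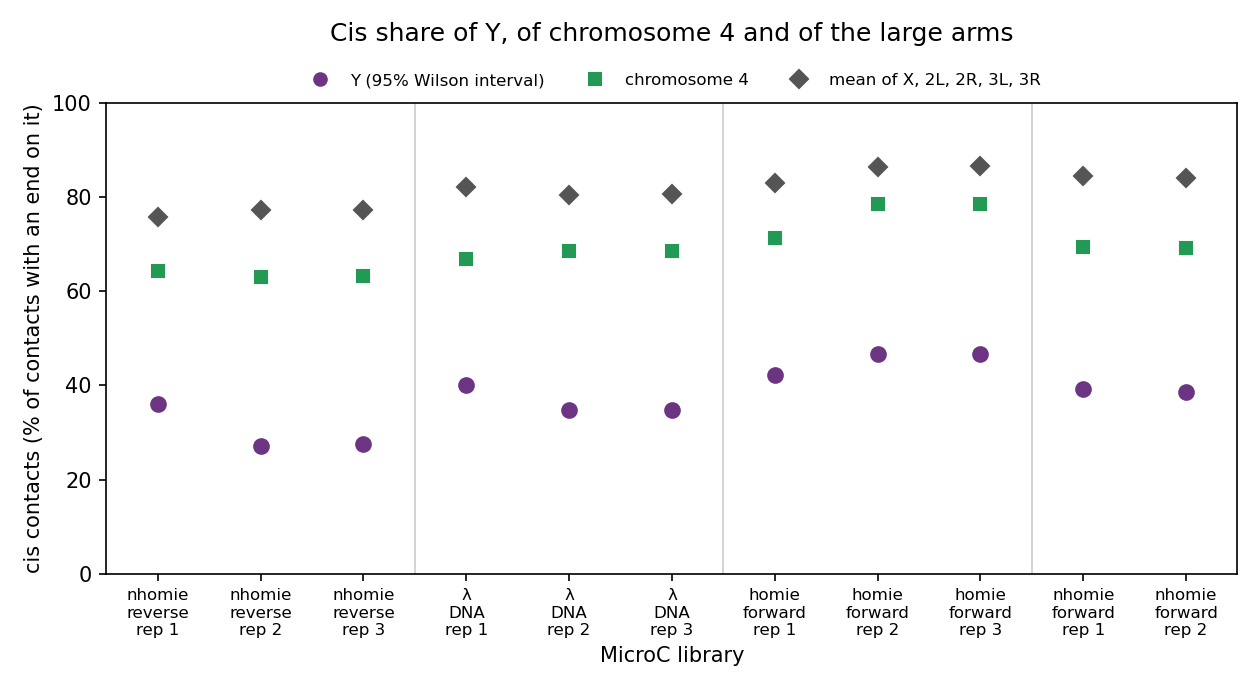
Cis share of the contacts of Y (circles, with 95% Wilson intervals that are smaller than the symbols), of chromosome 4 (squares) and of the mean of X, 2L, 2R, 3L and 3R (diamonds) in each of the 11 libraries. Y lies between 27.2% and 46.8% and below chromosome 4 and the arms in each library.

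Between genotypes the mean Y cis share was 31.7% ± 6.12 in *nhomie reverse*, 37.5% ± 3.75 in *λ DNA* and 44.5% ± 3.18 in *homie forward*, against 38.9% ± 0.514 in *nhomie forward* (SD, n = 2 each). Over the 11 libraries the genotypes differed (two-sided exact test that permuted libraries among genotypes, with the F ratio as statistic; p = 0.00558, or 0.0223 after Benjamini-Hochberg adjustment over 8 measures). With replicates 2 and 3 as 1 sample they did not pass (exact p = 0.0857, adjusted p = 0.171, where 0.00952 is the smallest p possible). The call over 11 libraries was also lost without replicate 2 of *λ DNA* (exact test, adjusted p = 0.0590) and without replicate 2 or 3 of *homie forward* (adjusted p = 0.0643 and 0.0686). No pairs of genotypes were tested, since 3 libraries against 2 cannot give an exact p below 0.10.

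The cis share of the arms, whose difference between genotypes was not tested, averaged 76.5% ± 1.05 in *nhomie reverse*, 81.3% ± 1.08 in *λ DNA*, 84.7% ± 2.51 in *homie forward* and 84.2% ± 0.292 in *nhomie forward* (SD, n = 2 each). A measure in which the cis share of the whole library cancels is the Y share of all trans ends over the Y share of all cis ends. It was 7.23 ± 2.42 in *nhomie reverse*, 7.24 ± 0.636 in *λ DNA* and 6.95 ± 0.463 in *homie forward*, against 8.35 ± 0.00151 in *nhomie forward* (SD, n = 2 each), and did not pass the test between genotypes (exact permutation test over 11 libraries, p = 0.705, adjusted p = 0.705). Without replicate 1 of *nhomie reverse*, which at 5.52 lay farthest from the others, it did (exact test, adjusted p = 0.0237). That library also set the direction for its genotype: the measure differed from that in *nhomie forward* by -2.83 in replicate 1 but by 0.67 in replicate 2 of *nhomie reverse*. The rest of the libraries lay between 6.62 and 9.02.

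The trans contacts of Y were compared with the number expected from the product of trans ends: the trans ends of Y, multiplied by the share that the partner holds of all trans ends on the other sequences. Chromosome 4 stays among these sequences although its pair with Y is left out, which raises every ratio slightly. A ratio just above 1 therefore need not mark an excess. Y met X more often than expected in every library. In *nhomie reverse*, 29038, 34593 and 27600 contacts joined Y and X in replicates 1, 2 and 3, where 26524, 27128 and 21566 were expected. In *λ DNA* there were 12742, 28785 and 23723 such contacts, where 9778, 22317 and 18500 were expected. In *homie forward* there were 13134, 14532 and 10711, where 10715, 10565 and 7714 were expected, and in *nhomie forward* 47121 and 66221, where 30539 and 43772 were expected. X thus received 17.0% to 23.1% of the trans contacts of Y while holding 14.9% to 15.7% of the trans ends. The trans ends of X come from all embryos of the pool, while contacts of Y come from males only. The expected number for X therefore depends on the share of males in each library, which is not known.

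As observed-to-expected ratios, the contacts of Y with X were 1.09, 1.28 and 1.28 in replicates 1, 2 and 3 of *nhomie reverse*, 1.30, 1.29 and 1.28 in *λ DNA*, 1.23, 1.38 and 1.39 in *homie forward* and 1.54 and 1.51 in *nhomie forward*. Both *nhomie forward* libraries lay above every library of the other genotypes, and replicate 1 of *nhomie reverse* lay below all others. The contacts of chromosome 4 with X had the same extremes: their ratio, computed in the same way, was 1.01 to 1.11 in the libraries of the other genotypes, lowest in replicate 1 of *nhomie reverse*, against 1.22 and 1.21 in *nhomie forward*. The narrowest margin of the contacts of Y over the expected number, in replicate 1 of *nhomie reverse*, had a counting interval of 1.08 to 1.11 (95% Wilson). On the log2 scale, the ratio with X exceeded the mean of the ratios with 2L, 2R, 3L and 3R by 0.48 ± 0.20 (SD, n = 8), with the same sign in all 8 samples (two-sided exact sign-flip permutation test, p = 0.00781, adjusted p = 0.00781 over 6 differences, and p = 0.000977 over 11 libraries).

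Arm 2L was on the other side. Its contacts with Y were 0.949, 0.874 and 0.871 times the expected number in *nhomie reverse*, 0.880, 0.852 and 0.861 times in *λ DNA*, 0.905, 0.816 and 0.799 times in *homie forward*, and 0.770 and 0.769 times in *nhomie forward*. All 11 libraries lay below 1, with the *nhomie forward* libraries lowest. Relative to the other 4 partners the log2 ratio of 2L was -0.32 ± 0.13 (SD, n = 8), and it was negative in all 8 samples (exact sign-flip permutation test, p = 0.00781, adjusted p = 0.00781). Ratios of the partners are tied to each other, since the contacts that X gains are missing from the shares of the other arms.

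Contacts with 3L were also fewer than expected, at 0.912 to 0.978 times the expected number, and its log2 ratio differed from the mean of the other partners by -0.14 ± 0.04 (SD, n = 8; exact sign-flip permutation test, p = 0.00781, adjusted p = 0.00781). That mean includes X, so the excess of X alone lowers the difference, and a deficit of 3L apart from it was not tested. Among the autosomal arms, the ratio of 3L lay between those of 2R and 2L in all 11 libraries. Arms 2R and 3R stayed close to the expectation, with ratios of 0.960 to 0.996 for 2R and 1.01 to 1.05 for 3R. By this expectation the arms of a chromosome therefore differed in their contacts with Y. The ratio for 2R was 1.05 to 1.26 times that for 2L, and the ratio for 3R was 1.07 to 1.13 times that for 3L. The order of the partners by the same expectation was X, 3R, 2R, 3L and 2L in all 11 libraries, as the plot of observed-to-expected contacts shows.

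**Figure D3:**
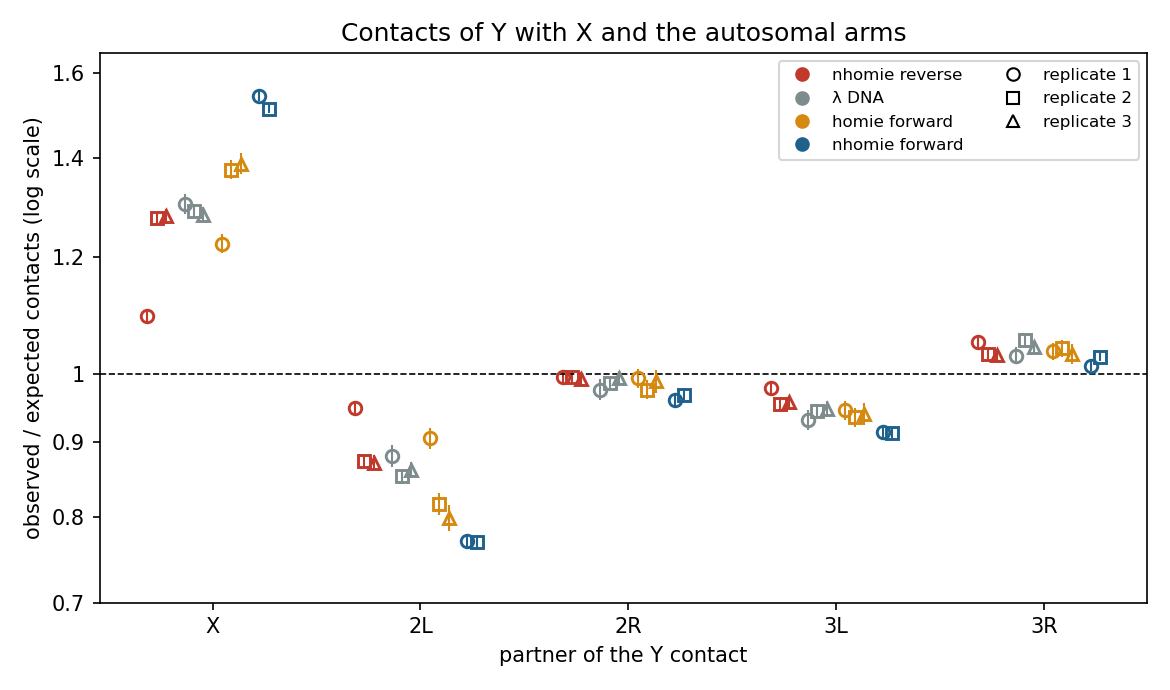
Observed over expected contacts of Y with X, 2L, 2R, 3L and 3R (log scale), with a symbol for each library, colored by genotype, and bars for 95% Wilson intervals of the counts. X lies above 1 in all 11 libraries, from 1.09 to 1.54, and 2L below 1, from 0.769 to 0.949.

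Which arms stand out depended in part on the expectation. In the product of trans ends, the left and right arms of an autosome count as separate sequences, so their contacts with each other enter as trans although they belong to 1 chromosome. When each sequence was instead given a weight fitted only on pairs of different chromosomes, the ratio was 1.13 to 1.48 for X, 0.797 to 0.967 for 2L and 0.908 to 0.967 for 3L, so X stayed above 1 and 2L and 3L below it. The ratio for 3R moved to 0.947 to 0.986 and its difference from the other partners turned to -0.07 on the log2 scale. The direction for 3R is thus set by the choice of expectation. With these weights the order of the partners was X, 2R, 3R, 3L and 2L in all 11 libraries. Arms 3R and 3L came closest in replicate 1 of *nhomie reverse*, at 0.977 and 0.967. The 8 pairs among X, 2L, 2R, 3L and 3R that join different chromosomes stayed between 0.984 and 1.01 in all libraries under the same fit. These pairs hold most of the trans contacts and largely set the weights, so they must lie near 1 and are given for scale only.

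**Figure D4:**
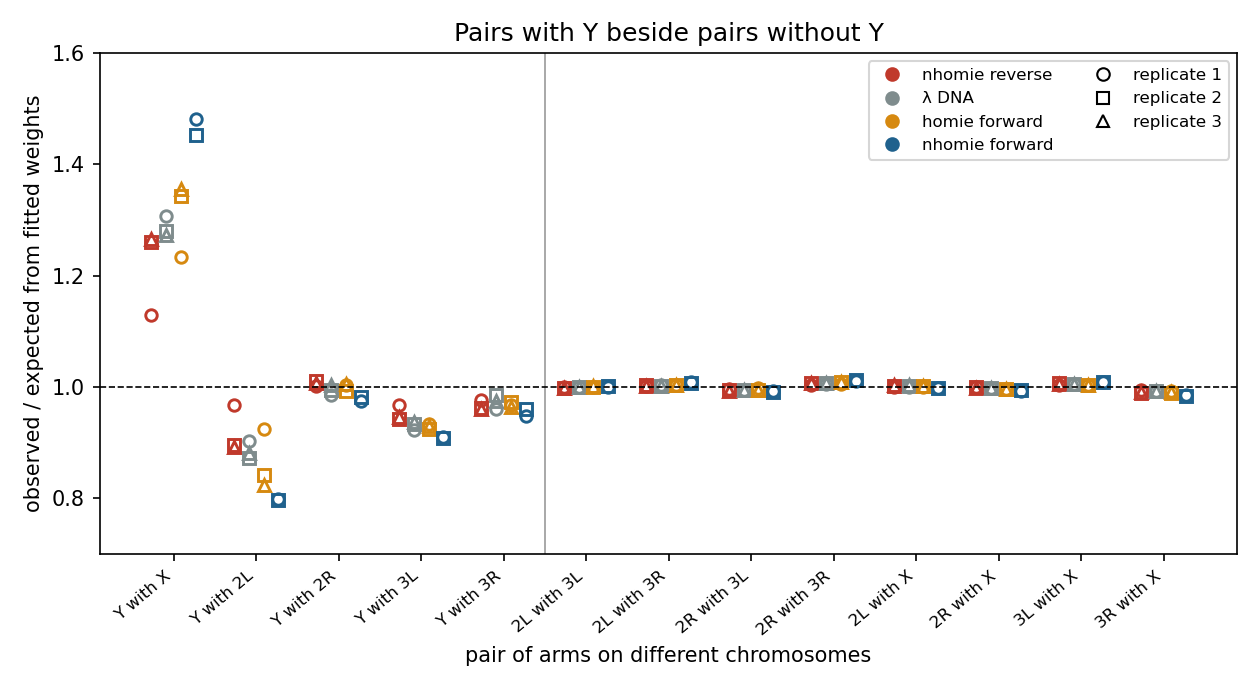
Observed contacts over those expected from fitted weights, for 5 pairs with Y and the 8 pairs without Y that join different chromosomes, with a symbol for each library, colored by genotype. Y with X spans 1.13 to 1.48 and Y with 2L 0.797 to 0.967, while the pairs without Y stay between 0.984 and 1.01.

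Set against the lengths of X, 2L, 2R, 3L and 3R, without any correction for how many ends each holds, Y had 0.958 to 1.30 times as many contacts with X and 0.828 to 1.01 times as many with 2L as their lengths would give. By this measure X ranked first among the partners in 10 of 11 libraries and last in replicate 1 of *nhomie reverse*, and 2R lay above the mean of the other partners, by 0.04 on the log2 scale. The mean log2 difference from the other partners was 0.23 for X and -0.16 for 2L over the 11 libraries, against 0.47 and -0.32 with the product of trans ends. In replicate 1 of *nhomie reverse* the ratios turned, to 0.958 for X and 1.01 for 2L.

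Chromosome 4 shared the direction of both leading deviations, but to a smaller degree. Its observed-to-expected ratio, computed in the same way, was 1.01 to 1.22 with X and 0.871 to 0.953 with 2L. Within a library, the log2 ratio of Y with X exceeded that of chromosome 4 with X by 0.28 ± 0.08 (SD, n = 8), and the log2 ratio of Y with 2L differed from that of chromosome 4 with 2L by -0.11 ± 0.07 (SD, n = 8). Each difference had the same sign in all 8 samples (two-sided exact sign-flip permutation tests, p = 0.00781 and adjusted p = 0.00781 over the 3 comparisons with chromosome 4). The difference for X was 0.12 to 0.34 in the libraries of the other genotypes, against 0.33 and 0.32 in *nhomie forward*, so the groups overlapped once chromosome 4 was subtracted. The difference for 2L was -0.20 to -0.01, against -0.18 in both *nhomie forward* libraries, and overlapped too. Neither was tested between genotypes. These comparisons were chosen after the data were seen.

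Contacts between Y and the mitochondrial genome, which lies outside the nucleus, numbered only 119 to 736 per library. They were 0.634, 0.649 and 0.681 times the expected number in *nhomie reverse*, 0.689, 0.839 and 0.868 times in *λ DNA*, 0.666, 0.965 and 0.909 times in *homie forward*, and 0.761 and 0.781 times in *nhomie forward*. In replicates 2 and 3 of *homie forward* the counting interval reached past 1 (0.850 to 1.10 and 0.779 to 1.06, 95% Wilson), so a deficit was not detectable there at this depth. With the fitted weights the ratio was 0.753 to 1.11 and lay above 1 in replicate 3 of *λ DNA* (1.01) and replicates 2 and 3 of *homie forward* (1.11 and 1.05), so the direction in these libraries depends on the expectation. The genotypes did not pass the test (exact permutation test over 11 libraries, p = 0.207, adjusted p = 0.236), but did without replicate 1 of *homie forward* (exact test, adjusted p = 0.0248).

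Across genotypes, the mean ratio of Y with X was 1.19 ± 0.129 in *nhomie reverse*, 1.29 ± 0.0121 in *λ DNA* and 1.30 ± 0.111 in *homie forward*, against 1.53 ± 0.0213 in *nhomie forward* (SD, n = 2 each). Over 11 libraries the log2 ratio differed between genotypes (the same exact permutation test, p = 0.0160, adjusted p = 0.0384 over 8 measures). With replicates 2 and 3 as 1 sample it did not (exact p = 0.0857, adjusted p = 0.171), and over 11 libraries the call was lost on leaving out any library but replicate 2 or 3 of *nhomie reverse* or replicate 1 of *homie forward*. It reached an adjusted p of 0.197 without replicate 1 of *nhomie forward* and 0.151 without its replicate 2. Within replicate numbers, the ratio in *nhomie reverse* differed from that in *nhomie forward* by -0.448 in replicate 1 and by -0.238 in replicate 2. The same differences were -0.240 and -0.223 in *λ DNA* and -0.317 and -0.137 in *homie forward*. The *nhomie forward* libraries were also the deepest and had the highest shares of cis pairs at 1 kb or more (58.2% and 59.1% of unique contacts, against 24.7% to 54.6% in the others). The part of depth and of these shares in the ratio was not tested, nor was that of the share of males, which is not known.

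The autosomal arms mirrored this. The mean ratio of Y with 3L was 0.967 ± 0.0164 in *nhomie reverse*, 0.938 ± 0.0103 in *λ DNA* and 0.941 ± 0.00533 in *homie forward*, against 0.913 ± 0.000727 in *nhomie forward* (SD, n = 2 each). It gave the smallest p among the 8 measures (exact permutation test over 11 libraries, p = 0.000649, adjusted p = 0.00519) and kept its call when any single library was left out, but did not pass with replicates 2 and 3 as 1 sample (exact p = 0.0286, adjusted p = 0.152). The ratio of 3L is tied to that of X, and a difference between genotypes apart from X was not tested. For 2R, the arm that carries the exchanged segment, the mean ratios were 0.995 ± 0.00110, 0.983 ± 0.00940 and 0.988 ± 0.00769 in *nhomie reverse*, *λ DNA* and *homie forward*, against 0.964 ± 0.00477 in *nhomie forward* (SD, n = 2 each). The 11 libraries passed (exact permutation test, p = 0.0192, adjusted p = 0.0384), but the 8 samples did not (exact p = 0.0381, adjusted p = 0.152), and the call was lost in 9 of the 11 cases in which a library was left out. It was also lost when replicate numbers entered as a block (exact test, adjusted p = 0.0611) and with fitted weights (exact test, adjusted p = 0.0518).

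For 2L the mean ratios were 0.910 ± 0.0540, 0.868 ± 0.0165 and 0.856 ± 0.0688 in *nhomie reverse*, *λ DNA* and *homie forward*, against 0.770 ± 0.000462 in *nhomie forward* (SD, n = 2 each). This did not pass after adjustment (exact permutation test over 11 libraries, p = 0.0436, adjusted p = 0.0698), although it did without replicate 1 of *homie forward* (exact test, adjusted p = 0.00466) and when replicate numbers entered as a block (adjusted p = 0.0417). With replicates 2 and 3 as 1 sample it did not, either without the block (exact test, adjusted p = 0.229) or with it (adjusted p = 0.200). Contacts with 3R averaged 1.04 ± 0.0139, 1.04 ± 0.0140 and 1.04 ± 0.000307 times the expected number in these genotypes, against 1.02 ± 0.0105 times in *nhomie forward* (SD, n = 2 each; exact test over 11 libraries, p = 0.186, adjusted p = 0.236).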

How the data were processed

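The authors aligned the reads (50 bases per mate) with BWA-MEM, using versions of BDGP Release 6 that carry the exchanged sequences, removed duplicates, pairs with an unmapped end and pairs of mapping quality under 3 with Pairtools, and deposited for each library 222 Pairtools statistics, of which the raw counts of pairs by chromosome pair and the chromosome lengths were used. Tool versions are not given in the sources used here. In each library the counts added up to its unique contacts, 87012109 to 472473246. Since they are classes of a single total, no count model was fitted. Shares and ratios were computed with Python 3.11.15, numpy 2.4.6, scipy 1.17.1 and pandas 2.3.3, and figures were drawn in matplotlib 3.10.9. Genotypes were compared over all 92400 assignments of libraries, and differences within libraries by exchanging signs. Adjustment was by the Benjamini-Hochberg method with a threshold of 0.05. Tests were tried on simulated data. No genes were measured, and every pair with Y other than that with chromosome 4 is named. The members and comparisons were chosen with earlier results of these data known. Alternatives were other expectations, scales and denominators, a replicate block, joined replicates and libraries left out.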

Additional observations from a re-analysis of the deposited data

How the results depend on the processing

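The low cis share of Y, its excess of contacts with X and its deficits with 2L and 3L kept the direction of their mean and passed the threshold under every alternative tried, although with lengths the log2 differences for X and 2L shrank to 0.23 and -0.16. The deficits are measured against a mean that includes X and were not tested apart from it. Only 2 directions turned: 3R against the other partners (-0.068 on the log2 scale with fitted weights) and 2R (0.039 with lengths). The tests between genotypes, all exact permutation tests, were less stable. With replicates 2 and 3 as 1 sample, the adjusted p was 0.171 for the cis share and for X and 0.152 for 2R and 3L, and with the replicate block as well 0.200 for all 4 and for 2L. The smallest p possible is then 0.00952 or 0.0417, so that fewer samples alone raise it. With the replicate block over 11 libraries, the exact permutation test passed for 2L (adjusted p = 0.0417) and not for 2R (0.0611), which left the count of calls unchanged. With fitted weights, 2R gave 0.0518. The causes were not tested. Leaving out a library, or replicate 1 of each genotype, gave adjusted p of 0.00889 to 0.0686 for the cis share, 0.00466 to 0.197 for X, 0.00466 to 0.199 for 2L, 0.0239 to 0.190 for 2R, 0.0127 to 0.424 for contacts with the mitochondrial genome and 0.0127 to 0.861 for the ratio of trans to cis shares. A genotype left with 1 library is assumed to vary like the others. Without replicate 1 of each genotype, the spread came only from replicates 2 and 3, which were counted as 1 sample above. Of 273 combinations of result and setting, 233 kept direction and side of the threshold, 31 lost the call, 7 gained it and 2 reversed. Whether replicate numbers pair the libraries was unclear. Same-numbered libraries of different genotypes correlated in their deviations from the genotype means at 0.238 to 0.912 over the 7 classes of Y contacts. Over all 35 pairs of chromosomes used, they correlated at -0.132 to 0.934. Libraries of different numbers correlated at -0.917 to 0.922 and at -0.929 to 0.921. Deviations within a genotype are tied through its mean, so these values are not independent. While 8 of 11 libraries correlated best with one of their own number, the block was kept as an alternative only. Depth limits mainly the contacts of Y with the mitochondrial genome.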
